A study of Felis catus with 36 samples.

Results

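Messenger RNA of the left ventricle was compared between cats with aortic banding and sham-operated cats 4 months after the operation. The comparison rests on 10 of the 36 libraries of the series, 5 titled banded 4 month and 5 titled sham 4 month, which were taken by tissue, treatment and time as the labels give them. The other left ventricle libraries (5 banded and 3 sham at 1 month) entered the same fit, and the skeletal muscle libraries of 4 months (5 banded and 5 sham) served to compare the tissues. The series models heart failure with preserved ejection fraction in cats, and its labels name no strain, sex, age, genotype or drug for any group. The labels do not say that libraries of a group come from separate cats, so p-values measure the spread between libraries.

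Banding narrows the aorta, so the left ventricle has to pump against a raised pressure. Under such a load the heart muscle is known to thicken, to stiffen as collagen is laid down between its cells, and to take up part of a fetal gene programme. In heart failure with preserved ejection fraction the ventricle still empties well but fills poorly. The sham animals had an operation without the narrowing and are the controls for surgery and time.

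The count files name genes by Ensembl identifier only, and 0 of 26681 identifiers could be paired with a symbol here. Cardiomyocyte, fibroblast, blood or other marker genes could therefore not be looked up, and the label of left ventricle was not checked against them. In bulk RNA, fewer cells of a type and less RNA per cell cannot be told apart. No gene is given a function below, since none has a name.

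Banded libraries held 14.6 to 20.7 M gene counts and sham libraries 19.5 to 22.3 M. The means were 17.4 ± 2.59 M and 21.2 ± 1.23 M (SD, n = 5 each), with an exact two-sided permutation p of 0.0317, which was 0.127 after Benjamini-Hochberg adjustment over 8 library measures. Genes with at least 1 count numbered 15649 to 16215 in banded and 15876 to 16320 in sham libraries. Of all reads listed, which are the gene counts plus those set aside by the counting program, 21.4% to 36.7% in banded and 21.8% to 24.7% in sham libraries had aligned at more than 1 place (exact permutation p = 0.0952, adjusted 0.206). Reads that fell on more than 1 gene made up 0.0910% to 0.142% in banded and 0.158% to 0.240% in sham libraries, with no overlap (exact permutation p = 0.00794, the smallest that 5 against 5 allows, adjusted 0.0635). Their part in the results below was not tested.

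Few differences between banded and sham left ventricle stood clear of the spread between libraries. With edgeR's quasi-likelihood test, 0 of 13976 genes (0%) had a Benjamini-Hochberg adjusted p under 0.05, and the lowest value was 0.0579. Without adjustment, 1420 genes (10.2%) had a p under 0.05 in edgeR, where 699 are expected by chance if no gene differed. DESeq2 called 135 genes (0.966%) on the same counts, all of them among the 1420, and limma voom called 1 gene with or without sample quality weights. In edgeR 5 genes passed without banded library 1 and 1 without banded library 3, and of the sham group the omission of library 1, 3 or 5 gave 2, 2 and 1 genes in that order.

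Differences were mostly small. Of the 1420 genes, 738 (5.28% of all tested) were higher and 682 (4.88%) lower in banded hearts, and their median size was 0.56 on the log2 scale, against 0.19 over all genes tested. A difference of more than 2-fold was seen for 295 of them, with 199 higher and 96 lower in banded. The banded libraries lay all above or all below the sham libraries for 222 of all genes tested (1.59%), of which 123 (0.88%) were higher and 99 (0.708%) lower in banded. Genes counted in one group alone were rare. Among the 26681 genes listed, 1 was counted in all 5 banded libraries and in no sham library and 1 in all 5 sham libraries and in no banded library, and 0 reached 10 counts in each library of one group with none in the other.

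The highest ranked gene in the upward direction was ENSFCAG00000046690. In banded hearts its libraries 1 to 5 stood at 503.4, 538.4, 556.4, 456.4 and 455.1 CPM (a gene's counts relative to the scaled library total), against 318.3, 199.8, 265.7, 197.9 and 154.7 CPM in sham hearts. The groups did not overlap, and the sham libraries were spread the more widely, with library 1 the highest. The mean was 501.9 ± 46.3 CPM in banded and 227.3 ± 64.5 CPM in sham hearts (SD, n = 5 each), a 2.21-fold ratio. Its log2 fold change was 1.14 (SE 0.176), with an adjusted p of 0.0579 with edgeR and 3.02e-06 with DESeq2. It was the gene that voom called, with adjusted p of 0.0288 without and 0.0103 with quality weights. EdgeR's adjusted p for it was 0.0381 when banded library 1 was left out, 0.00679 when sham library 1 was and 0.0486 when sham library 3 was. Over all alternatives, DESeq2 fits included, the adjusted p ran from 1.22e-10 to 0.295.

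ENSFCAG00000018358 had the largest ratio among the 4 genes named. Banded libraries 1 to 5 stood at 4.11, 17.9, 9.44, 22.0 and 8.71 CPM, against 2.00, 1.98, 3.19, 2.75 and 2.75 CPM in sham libraries. The groups did not overlap, although the banded libraries themselves ranged widely and banded library 1 lay near the sham values. Means were 12.4 ± 7.31 CPM in banded and 2.53 ± 0.532 CPM in sham hearts (SD, n = 5 each). The log2 fold change was 2.29 (SE 0.404), with an adjusted p of 0.0864 with edgeR, 0.0210 with edgeR without banded library 1, 0.0218 with edgeR and banded libraries 4 and 5 alone, and 4.72e-05 with DESeq2. Over all alternatives, DESeq2 fits included, the adjusted p ran from 5.34e-08 to 0.343.

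Among genes lower in banded hearts, ENSFCAG00000043990 ranked highest. It stood at 68.7, 65.4, 98.7, 70.2 and 75.7 CPM in banded libraries 1 to 5, against 115.4, 145.5, 133.5, 118.7 and 112.8 CPM in sham libraries. Banded library 3 came closest to the sham libraries, and the groups did not overlap. The mean was 75.7 ± 13.4 CPM in banded and 125.2 ± 13.9 CPM in sham hearts (SD, n = 5 each). Its log2 fold change was -0.73 (SE 0.123), with an adjusted p of 0.0864 with edgeR and 6.56e-05 with DESeq2. Without banded library 3 the adjusted p with edgeR was 0.0114. Over all alternatives, DESeq2 fits included, the adjusted p ran from 1.91e-10 to 0.416.

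ENSFCAG00000006854 had narrow groups. Banded libraries 1 to 5 stood at 20.9, 26.4, 22.8, 27.6 and 23.7 CPM, against 44.4, 43.6, 41.01, 42.1 and 46.5 CPM in sham libraries. Every banded library lay well below the lowest sham library. The mean was 24.3 ± 2.71 CPM in banded and 43.5 ± 2.11 CPM in sham hearts (SD, n = 5 each), with a log2 fold change of -0.84 (SE 0.164). The adjusted p was 0.174 with edgeR and 0.00357 with DESeq2, and ran from 0.00262 to 0.318 over all alternatives, DESeq2 fits included. DESeq2 called each of the 4 named genes in all 10 fits that left out 1 library. The genes were named for their p in these same libraries, so that is a description and not a test.

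**Figure D1:**
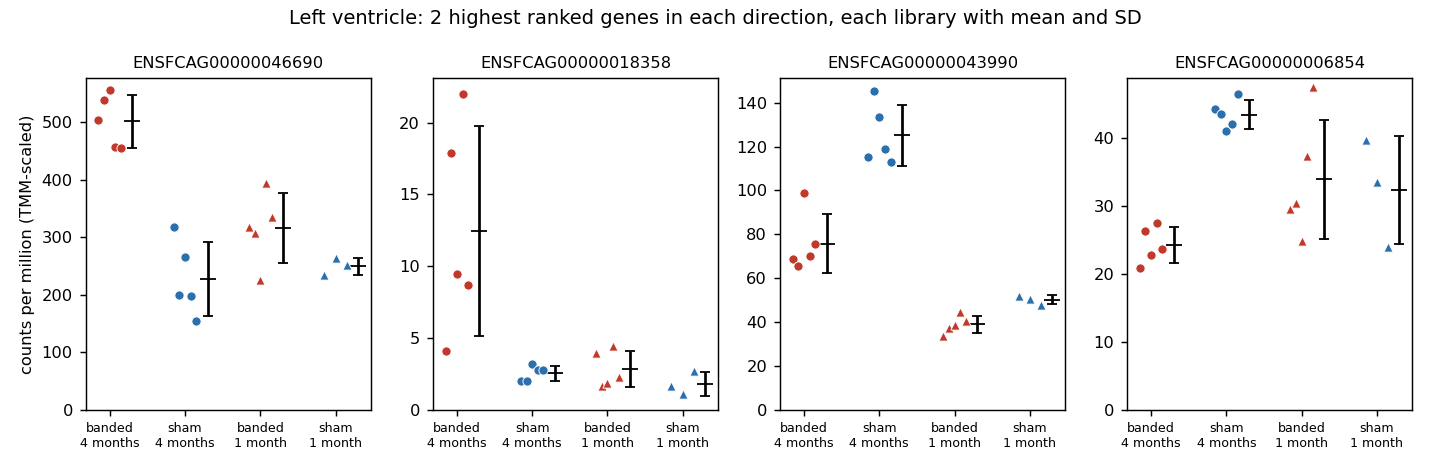
Level of the 2 highest ranked genes of each direction in left ventricle, in CPM on a linear axis from 0, with 1 point per library and the mean and SD beside it for banded and sham at 4 months (circles) and at 1 month (triangles). At 4 months the banded circles lie above the sham circles for ENSFCAG00000046690 and ENSFCAG00000018358 and below them for ENSFCAG00000043990 and ENSFCAG00000006854.

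The 15 highest ranked genes in each direction, with a mean of at least 1 CPM, describe how large the differences were. In the upward direction the ratio of banded to sham means ran from 1.56 to 20.5, with a median of 1.99, and 10 of the 15 had groups that did not overlap. In the downward direction the ratio ran from 0.284 to 0.653, with a median of 0.558, and 6 of 15 had groups that did not overlap. DESeq2 called all 30. These genes were taken for their p, so their ratios are a description and not a test.

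**Figure D2:**
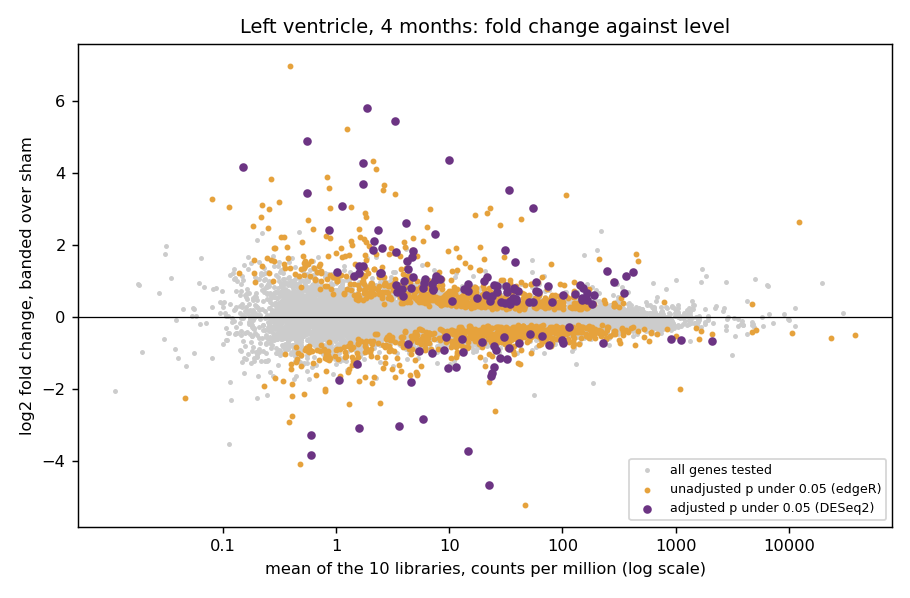
Log2 fold change of banded over sham at 4 months against the mean level of the 10 libraries in CPM (log axis), with 1 point per gene for the 13976 genes tested. Coloured points are the 1420 genes with an unadjusted p under 0.05 in edgeR and the 135 called by DESeq2, which reach the largest fold changes at low levels.

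With all libraries, the share of genes past an unadjusted p that were higher in banded hearts fell with level from 1 CPM upward. Over all genes tested 47.6% were higher, a share that was not split by level. Among genes with an unadjusted p under 0.05 in edgeR, 262 of 415 (63.1%) with a mean of 1 to 10 CPM were higher in banded hearts. From 10 to 100 CPM it was 336 of 704 (47.7%), and from 100 to 1000 CPM 63 of 163 (38.7%). Below 1 CPM 75 of 124 genes were higher, and of the few genes at 1000 CPM and above 2 of 14. The library totals differed between the groups, so the same split was taken after all left ventricle libraries were thinned to the same total. It then gave 65.2% higher at 1 to 10 CPM, 55.1% at 10 to 100 CPM and 47.9% at 100 to 1000 CPM. With another scaling of the libraries (RLE) these shares were 65.6%, 51.4% and 42.1%. With 1 library left out, the share of genes that were higher ran from 61.6% to 71.9% at 1 to 10 CPM and from 30% (without sham library 2) to 52.4% (without sham library 1) at 100 CPM and above. It was also above 50% there without banded library 4 (51.5%) and without sham library 4 (51.4%), so the lower side prevailed among abundant genes in some but not all of these fits.

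**Figure D3:**
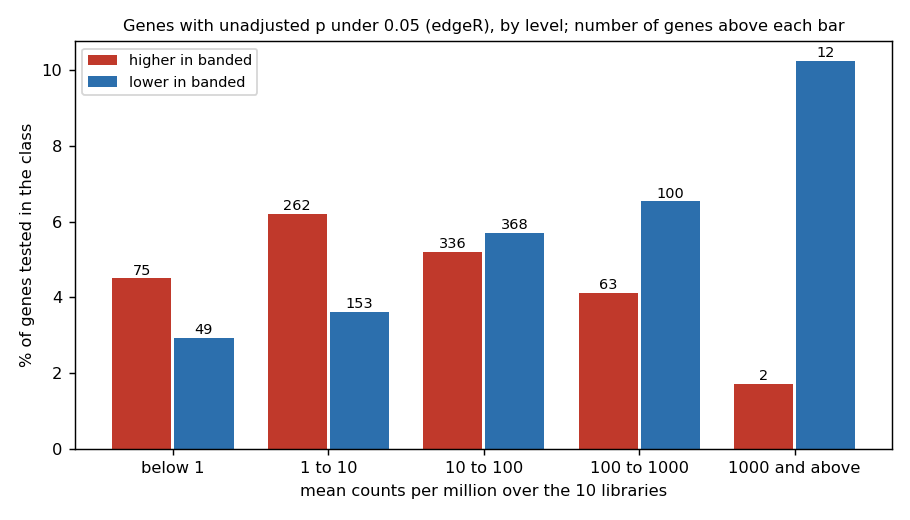
Genes with an unadjusted p under 0.05 in edgeR as a percentage of the genes tested in each class of mean CPM, higher in banded left of lower in banded, with the number of genes above each bar. At 1 to 10 CPM 262 genes were higher and 153 lower, and at 100 to 1000 CPM 63 genes were higher and 100 lower.

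DESeq2's 135 genes were 95 higher and 40 lower in banded hearts, with a median absolute log2 fold change of 0.92 and 58 beyond 2-fold. Of these, 38 higher and 15 lower genes had groups that did not overlap. The count rested on single libraries. It was 51 without banded library 2 and 55 without banded library 4, and 64, 78 and 81 without sham libraries 4, 5 and 2. With any other library left out it lay between 142 and 177. Of the 135 genes, 26 were called in all 10 of these fits, 22 of them higher and 4 lower in banded. The 22 had ratios of banded to sham means from 1.29 to 60.9 with a median of 2.07, and the 4 lower genes had ratios from 0.374 to 0.651.

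**Figure D4:**
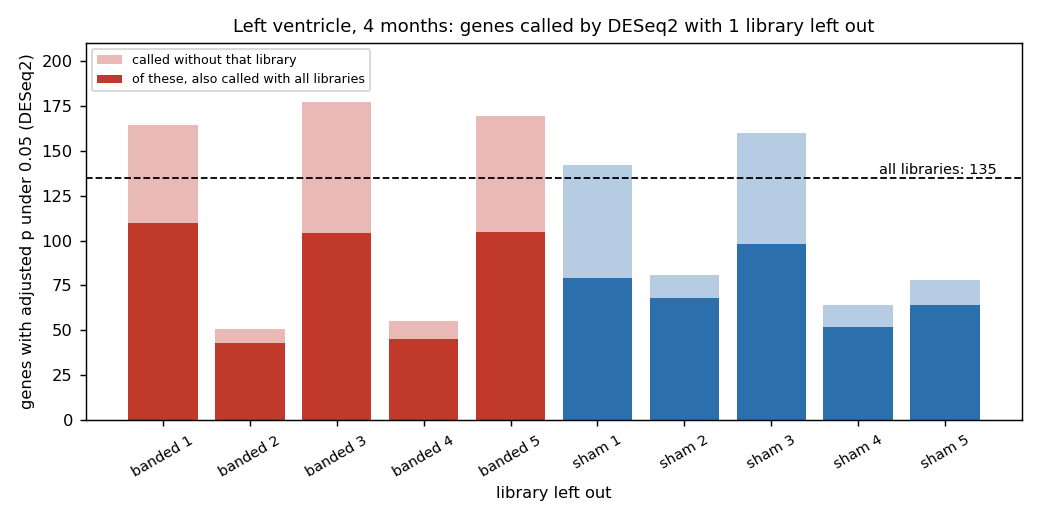
Number of genes with an adjusted p under 0.05 in DESeq2 when 1 of the 10 libraries was left out (pale bars) and how many of them were also called with all libraries (dark bars), with banded libraries in red on the left and sham libraries in blue on the right. The dashed line marks the 135 genes of all libraries, and the bars run from 51 without banded library 2 to 177 without banded library 3.

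Banded library 4 differed the most from the other 4 banded libraries, by the measures below. In it 1103 of 12310 genes with a mean of at least 1 CPM differed more than 2-fold from the mean of the other 4, against 660 to 941 for the other banded libraries and 400 to 843 for sham libraries. On the component that held the most variance (20.9%) it lay at 59.5, and the other 9 libraries lay between -35.0 and 18.2. Dixon's test for an outlier within the banded group did not flag it on that component. The spread within groups was otherwise alike, with a median SD of log2 CPM of 0.318 in banded and 0.310 in sham libraries.

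A separate set of genes was high in banded libraries 1, 2 and 3 and not in banded libraries 4 and 5. In 10 genes each of these 3 libraries lay above 1 CPM and more than 3-fold above every one of the other 7 libraries, and 0 genes showed the reverse. The rule for this set was made after the values were seen, so its fold changes are no test. The most abundant of the 10 stood at 25114, 24322, 50693, 4681 and 1547 CPM in banded libraries 1 to 5, against 2464, 2124, 1962, 6904 and 3621 CPM in sham libraries. It alone took up 2.55%, 2.38% and 4.28% of the gene counts of banded libraries 1, 2 and 3. The other 9 together summed to 73.8, 137.6, 111.9, 11.9 and 4.00 CPM in banded libraries 1 to 5 and to 2.11 to 18.3 CPM in sham libraries.

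The rule that chose these 10 genes favours large positive fold changes and a low p, so the values here describe them only. Their fold changes were among the largest of the comparison. These ran from 2.64 to 5.80 on the log2 scale with a median of 3.98. All 10 genes were among the 1420 (10.2% of all tested) with an unadjusted p under 0.05 in edgeR. DESeq2 called 5 of them, and these made up 5 of the 11 genes it called with a more than 8-fold higher level in banded hearts. The most abundant one was not called, with a log2 fold change of 2.64 (SE 0.806) and an adjusted p of 0.257 with edgeR and 0.0515 with DESeq2. Of the 26 genes that DESeq2 called in all 10 fits with 1 library left out, 2 belonged to this set, and the ratios of the other 20 higher genes ran from 1.29 to 20.5 with a median of 1.94. At 1 month the 10 genes were all lower in banded than in sham left ventricle, with a median log2 fold change of -2.20. That rested largely on sham library 3 of 1 month, without which 8 of 10 were lower, the median was -0.77 and 0 had an unadjusted p under 0.05 in edgeR.

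Most libraries with high levels of these genes also had high shares of reads aligned at more than 1 place. That share was 31.5%, 27.4%, 36.7%, 25.6% and 21.4% in banded libraries 1 to 5. Among the 18 left ventricle libraries, the 6 with the most abundant gene at 8490 CPM or more were also the 6 with the highest shares, from 25.9% to 36.7%. The other 12 had at most 6904 CPM and shares of 18.3% to 25.6%. The cut at 6 was not planned, and the gene was chosen for its level in banded libraries 1, 2 and 3 of 4 months, which are among the 6. The match is thus a description and not a test. For the summed level of the other 9 genes, 5 of the 6 highest libraries were among the 6 with the highest shares. The order was not strict within groups, since sham library 4 of 4 months had the highest sham level of that time, 6904 CPM, with the lowest sham share, 21.8%. Outside the banded group of 4 months the gene was highest in sham left ventricle library 3 of 1 month, at 34483 CPM with a share of 28.6%. In skeletal muscle, sham library 1 of 1 month had 34136 CPM and a share of 27.2%, and the other 17 libraries had at most 7460 CPM and at most 15.4%.

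With that share as a covariate in the fit, chosen after the data were seen, the 10 genes had log2 fold changes from 0.69 to 4.75, 6 had an unadjusted p under 0.05 in edgeR, and DESeq2 called 0 of them. DESeq2 then called 43 genes in all, 29 higher and 14 lower in banded, of which 35 were among its 135. EdgeR called 0 genes with the covariate, and 1221 had an unadjusted p under 0.05. The log2 fold changes of the 4 named genes changed little under the covariate in edgeR. They were 1.07 for ENSFCAG00000046690, 2.21 for ENSFCAG00000018358, -0.79 for ENSFCAG00000043990 and -0.76 for ENSFCAG00000006854. The adjusted p of these genes in that order was 0.124, 0.183, 0.118 and 0.318 with edgeR. With DESeq2 it was 0.000659, 0.00226, 0.000243 and 0.0453. Each adjusted p was higher than without the covariate. With banded libraries 4 and 5 alone against sham, edgeR called 28 genes and DESeq2 153, and 50 of the 153 were among the 135. DESeq2 then did not call ENSFCAG00000006854, with an adjusted p of 0.11, and called the other 3 named genes.

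**Figure D5:**
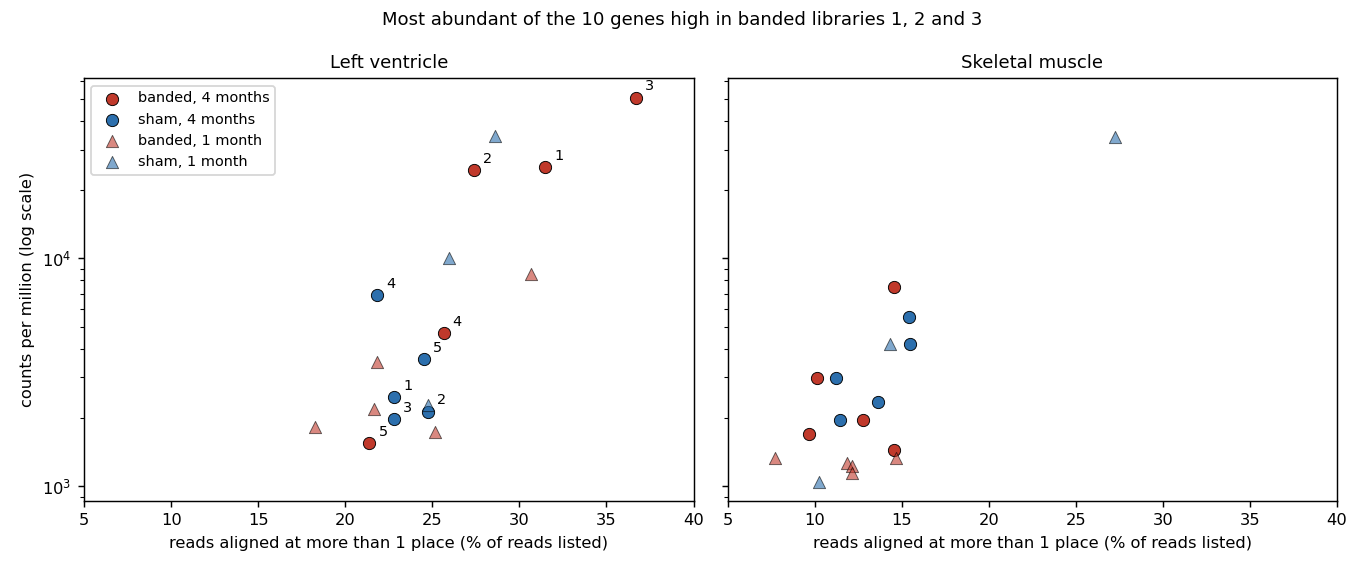
Level of the most abundant of the 10 genes, in CPM on a log axis, against the share of reads aligned at more than 1 place, for 18 left ventricle libraries and 18 skeletal muscle libraries, with library numbers beside the left ventricle points of 4 months. Banded libraries 1, 2 and 3 of 4 months lie at the upper right with sham library 3 of 1 month, and in skeletal muscle only sham library 1 of 1 month does.

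The 1420 genes were next looked at in left ventricle 1 month after banding. The libraries of 1 month were not in the contrast that chose these genes. They did enter the same fit, with its filter, scaling and estimate of spread, so the check is not fully independent. Of the 1420, 957 (67.4%) had the same sign at 1 month, against 56.8% of all genes tested. Genes lower in banded at 4 months had the same sign at 1 month in 70.1% of cases, and 102 of them passed an unadjusted p under 0.05 in edgeR with the same sign and 10 with the opposite sign. For genes higher in banded the share was 64.9%, with 54 passing with the same sign and 18 with the opposite sign. At 1 month 8.70% of all genes passed that p, 837 with the same sign and 379 with the opposite sign. The values over all genes were not split by direction, so they are no reference for the higher or the lower genes alone. In a fit without sham library 2 of 1 month, the genes with an unadjusted p under 0.05 at 4 months were taken anew. Of these, 58.1% had the same sign at 1 month, against 51.6% of all genes in that fit. The excess over all genes was smaller without sham library 4 of 4 months, at 59.5% against 54.9%. There 62.4% of the higher and 55.7% of the lower genes had the same sign, so the lower genes lay close to all genes. The higher genes had the larger share in some of the fits with 1 library left out, and the lower genes in others.

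The difference between the times was tested itself. For the effect of banding at 4 months less its effect at 1 month, edgeR called 0 genes (0%), and 885 genes (6.33%) had an unadjusted p under 0.05. DESeq2 called 3 genes, all with a positive difference, and voom 0. The edgeR count was 53 without sham library 2 of 1 month, 10 with a positive and 43 with a negative difference.

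The levels of the named genes at 1 month are given as a description, with no test between the genes. For none of them did the difference between the times have an adjusted p under 0.05 in edgeR. ENSFCAG00000046690 averaged 315.6 ± 61.0 CPM in the 5 banded libraries and 249.4 ± 14.97 CPM in the 3 sham libraries of 1 month (SD), where the groups overlapped, and its effect at 4 months minus that at 1 month was 0.80 (SE 0.265, adjusted p 0.679 with edgeR). ENSFCAG00000018358 averaged 2.83 ± 1.27 CPM in banded and 1.79 ± 0.815 CPM in sham hearts at 1 month, and its effects differed by 1.63 (SE 0.608, adjusted p 0.705 with edgeR). Banded hearts of 4 months thus held the highest group mean of both genes in left ventricle.

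ENSFCAG00000043990 averaged 38.9 ± 4.06 CPM in banded and 50.1 ± 2.07 CPM in sham hearts at 1 month, and the log2 fold change of -0.37 (SE 0.141) had an edgeR adjusted p of 0.454. The sign was that of 4 months, at lower levels in both groups. For this gene the effect at 4 months minus that at 1 month was -0.36 (SE 0.188, adjusted p 0.828 with edgeR). ENSFCAG00000006854 averaged 34.0 ± 8.79 CPM in banded and 32.4 ± 7.96 CPM in sham hearts at 1 month, with a log2 fold change of 0.07 (SE 0.188). Its effect at 4 months minus that at 1 month was -0.91 (SE 0.251, adjusted p 0.622 with edgeR).

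Skeletal muscle of 4 months served as a tissue outside the heart, although the labels do not say whether it came from the same cats. Of the 1420 genes, 58.5% had the same sign there, against 52.3% of all genes, and 7.55% of all genes had an unadjusted p under 0.05. The genes lower in banded hearts passed that p in muscle with the same sign in 71 cases and with the opposite sign in 15. Those higher in banded hearts did so in 35 and 28 cases, and all genes in 602 and 453 cases. A difference in the effect of banding between the tissues was called by edgeR for 5 of 14579 genes (0.0343%), each with the more positive effect in the heart. An unadjusted p under 0.05 was reached by 1163 genes (7.98%). The count of 5 was 0 without sham library 5 of left ventricle, 0 without banded library 5 of skeletal muscle, and 16 without skeletal muscle banded library 1. It was 1 to 3 without left ventricle sham library 2 or 4, left ventricle banded library 2 or 4, skeletal muscle sham library 2 or 3, or skeletal muscle banded library 3 or 4.

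None of the 4 named genes was among these 5. ENSFCAG00000046690 averaged 5.73 ± 2.76 CPM in banded and 4.92 ± 1.88 CPM in sham skeletal muscle at 4 months (SD, n = 5 each), on the scale of the fit of both tissues, where left ventricle held 392.4 and 175.2 CPM. Its effect in left ventricle minus that in muscle was 0.95 (SE 0.358, adjusted p 0.472 with edgeR). ENSFCAG00000018358 averaged 0.515 ± 0.690 CPM in banded and 0.648 ± 0.750 CPM in sham muscle, with a difference of effects of 2.64 (SE 1.17, adjusted p 0.554). ENSFCAG00000043990 averaged 36.8 ± 5.72 CPM in banded and 34.4 ± 4.52 CPM in sham muscle, a difference of effects of -0.80 (SE 0.259, adjusted p 0.350 with edgeR). ENSFCAG00000006854 averaged 4.42 ± 1.77 CPM in banded and 5.64 ± 0.841 CPM in sham muscle, with a difference of effects of -0.47 (SE 0.280, adjusted p 0.711 with edgeR).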

How the data were processed

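The authors deposited 1 table of whole-number counts per gene and library, not normalized, with 26681 genes and 5 summary lines. Per the labels' protocols the libraries were stranded mRNA libraries from total RNA, and the submitters' processing notes list DESeq2 1.22.2, HTSeq 0.11.2 and HISAT2 2.1.0, without their settings. Genome build, annotation and counting settings are not given in the sources used here. The 8 tables of the authors' own comparisons were not used. Summary lines were left out of totals and tests.

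EdgeR 4.0.16 (R 4.3.3) was fitted to the 18 left ventricle libraries as 4 groups, with filterByExpr (13976 genes), TMM scaling and the quasi-likelihood test, two-sided with Benjamini-Hochberg adjustment. A fit of all 36 libraries (14579 genes) gave the difference between tissues. CPM are TMM-scaled, and log2 CPM used a prior count of 2. DESeq2 1.42.0 and limma 3.58.1 were alternatives, with other scaling, filters, libraries and a replicate block. Fits were tested on simulated data. The 20 pairs of libraries within groups differed well beyond counting error (chi-square per degree of freedom of 60.4 or more).

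Named genes are the 2 highest ranked by edgeR p in each direction among those with a mean of at least 1 CPM. The groups compared, the lists and this rule were chosen with earlier results of these data known. The reference table of 39307 cat genes holds 0 Ensembl identifiers, so 47 gene lists of 897 symbols, markers of other cell types included, could not be used, and no sequence is shown. Genes most like the named ones are not given, since the groups separate and a pooled correlation would restate that.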

Additional observations from a re-analysis of the deposited data

Results flagged for a closer look

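In 5 genes the effect of banding at 4 months differed between heart and skeletal muscle by a test of the difference itself, with edgeR adjusted p from 0.0138 to 0.0299. The count depended on the setting, with 0 genes in voom, 1 with a replicate block over both tissues, and 0 without sham library 5 of left ventricle or without banded library 5 of skeletal muscle. It was 5 with RLE scaling, 5 without a low-count filter and 23 with DESeq2. The effect in left ventricle minus that in muscle ran from 1.45 to 6.49 on the log2 scale. Some levels were near 0. Group means of the 5 genes ran from 0.799 to 121.7 CPM in banded and 0.0679 to 75.3 CPM in sham left ventricle. In muscle they ran from 0.0477 to 162.8 CPM in banded and 1.17 to 197.1 CPM in sham. All 5 were higher in banded than in sham left ventricle, with log2 fold changes from 0.67 to 3.43 and edgeR adjusted p from 0.174 to 0.393 in that tissue alone, and DESeq2 called 3 of them there. All 5 had a negative log2 fold change in skeletal muscle, from -4.75 to -0.28, with edgeR adjusted p from 0.0286 to 0.957. None of the 5 was among the 10 genes that were high in banded libraries 1, 2 and 3, and 2 were among the 26 genes that DESeq2 called in left ventricle with each library left out in turn. Over 34 groups of values of library measures and named genes, 0 held a library beyond the limit of Dixon's test.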

How the results depend on the processing

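The log2 fold changes of the 4 named genes kept their sign under all alternatives. For banding at 4 months edgeR called 0 genes with RLE scaling, with only the 10 libraries and with genes of at least 1 CPM. It also called 0 with the share of reads aligned at more than 1 place as a covariate. EdgeR called 1 gene without a low-count filter and 1 with thinned libraries, and limma voom called 1 with or without weights. EdgeR called 0 to 5 with 1 library left out and 28 with banded libraries 4 and 5 only. DESeq2 called 135, and without banded libraries 1 to 5 in turn 164, 51, 177, 55 and 169, without sham libraries 1 to 5 in turn 142, 81, 160, 64 and 78, 43 with the covariate and 153 with banded libraries 4 and 5 only. The effect at 4 months minus that at 1 month gave 3 genes with DESeq2 and 0 to 53 with 1 library left out, with 582 (without sham library 3 of 1 month) to 2357 (without library 2) at an unadjusted p under 0.05. The difference between tissues gave 23 genes with DESeq2, 0 with voom and 0 to 16 with 1 library left out. The causes were not tested.

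The labels do not say that library numbers pair banded with sham libraries. Deviations of same-numbered libraries from their group means correlated from -0.327 to 0.003. These values had no reference to be set against, so they cannot decide whether the numbers pair libraries. With the replicate block edgeR called 0 genes for banding, with 1242 at an unadjusted p under 0.05. With the number as a replicate block across tissues the difference between tissues gave 1 gene.

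With 1 library left out, banded minus sham ran from -4.66 to -3.15 M gene counts, from -8.20 to -4.11 points of assigned reads, from 3.13 to 6.96 points of reads aligned at more than 1 place, from -0.224 to 1.01 points of unaligned reads and from -0.507 to 0.555 points for the 10 most abundant genes. The difference in gene counts passed an exact permutation p of 0.05 in 7 of 10 such sets. The sign turned for unaligned reads without banded library 1 (-0.033) or 2, and for the 10 most abundant genes without sham library 2 (-0.0869), sham library 3 (-0.227) or banded library 3. Tests of gene lists were not run, for want of symbols.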
